A study of Mus musculus with 6 samples.

Results

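The histone genes described here took 45 of the 17217 rows of the deposited expression table, in mouse macrophages with and without CD74. They form 2 classes. The replication-dependent class was every row whose symbol follows the family names H1f1 to H1f5, H2ac, H2bc, H3c or H4c with a number, which gave 37 genes: 5 for the linker histone H1, 5 for H2A, 9 for H2B, 9 for H3 and 9 for H4. The variant class was 8 named genes: H2ax, H2az1, H2az2, H3f3a, H3f3b, H1f0, H1f10 and Macroh2a1. RefSeq lists 63 symbols of this pattern, and 26 of them match no row of the table by that symbol. Family sums below cover only rows under a symbol of the pattern. Rows under other histone symbols, such as Hist1h4n and Hist1h2al, are outside these sums and are described apart.

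RNA of bone marrow-derived macrophages (macrophages grown in culture from marrow progenitors) was sequenced in 6 libraries, to ask how the transcriptome differs in the absence of CD74, a chaperone of MHC class II that is also called the invariant chain. The Control group (3 libraries, CD74+/+) and the Knockout group (3 libraries, CD74-/-) shared every other labelled condition. Marrow came from femurs of 8-week-old mice, was cultured with M-CSF (30 ng/mL), a growth factor for macrophages, and was stimulated with 100 ng/mL lipopolysaccharide (LPS) for 24 h, so no unstimulated cells were compared. All Control libraries were labelled batch 1 and all Knockout libraries batch 2, and batch and genotype cannot be told apart in any result below. The protocol text attached to every library speaks of WT mice, and genotype was therefore read from the titles and genotype labels. The sources used here do not state the mouse strain, the Cd74 allele or whether a group's replicates are separate animals or cultures, and the p-values thus measure only the spread between these libraries, which may be technical.

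The libraries held 36445483 to 59236616 reads recovered from the table. Cd74 was 632, 593 and 594 TPM in Control and 65.3, 64.6 and 63.1 TPM in Knockout (TPM is a transcript abundance scaled for gene length and library size). The Knockout values of Cd74 are not whole reads at any gene length tried, whereas all 45 histone genes are whole reads in all 6 libraries. Of 15 macrophage marker genes, 10 had a row and 9 were tested, of which 5 were called higher, 1 lower (Adgre1, from 489 ± 4.44 to 332 ± 34 TPM) and 3 not (Cd68, Cd14 and Fcgr1). Of all tested rows, 18.5% were called higher and 10.1% lower. The calls of Msr1, Spi1 and Itgam were lost in some alternative settings of the fit. The summed level of the macrophage markers was 11087.4 to 11629.4 TPM in Control and 14502.7 to 15780.1 TPM in Knockout, a difference carried mostly by Lyz2, at 5372.6 ± 355 and 8658.0 ± 778 TPM (SD, n = 3 each). C1qa, C1qb, C1qc, Marco and Mertk had no row, and Mrc1 was 0.317 to 0.645 TPM. Of 8 neutrophil markers 2 had a row: S100a8 was 5.01 ± 0.762 and 19 ± 3.34 TPM, Camp 0.863 ± 0.572 and 0.613 ± 0.519 TPM, and their sum 4.55 to 6.6 TPM in Control and 16.3 to 22.6 TPM in Knockout. The summed markers of B cells were at most 0.771 TPM, and Hdc, the 1 mast cell marker with a row, was 21.9 to 31.2 and 4.37 to 9.03 TPM. Lck, the 1 T cell marker with a row, was 12.6 to 13.9 TPM in Control and 10.8 to 11.3 TPM in Knockout. Hdc and Lck were called lower, Lck not in every alternative setting. The part of these markers in the histone results was not tested.

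Histones are the proteins around which DNA is wound: H2A, H2B, H3 and H4 form the core of the nucleosome and H1 binds the linker DNA between cores. Replication-dependent histone genes lie in clusters, have no introns and are transcribed mainly in S phase, when new DNA must be packaged, and their mRNAs end in a conserved stem-loop in place of a poly(A) tail. The stem-loop is bound by SLBP, the stem-loop binding protein, which takes part in 3′ end processing, translation and stability of the mRNA. Variant histones are mostly made throughout the cell cycle from polyadenylated mRNAs and are also incorporated outside replication, with H3.3 (H3f3a and H3f3b), H2A.Z (H2az1 and H2az2) and the DNA damage substrate H2A.X (H2ax) as the best known examples.

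The stem-loop is the best known sequence mark of the replication-dependent class, and it is shown for the members on which the results turn. It was searched in the GENCODE M21 transcripts on the transcript strand, as 16 bases with GG, any 3 bases, TT, any 3 bases, A, any 3 bases and CC in which the first and last 6 bases pair as a perfect stem around a 4-base loop. The stem is in capitals and the loop in lower case, 5′ to 3′ in DNA letters.
H1f2: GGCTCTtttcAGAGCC
H2bc8: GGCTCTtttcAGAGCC
H3c15: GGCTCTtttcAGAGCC
H2bc3: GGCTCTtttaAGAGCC
H3c8: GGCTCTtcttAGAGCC
H4c8: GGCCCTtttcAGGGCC
H4c9: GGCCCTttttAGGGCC
H4c14: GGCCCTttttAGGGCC
H4c1: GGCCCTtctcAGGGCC
H4c11: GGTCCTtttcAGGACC
H2ax: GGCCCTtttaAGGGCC

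The pattern was present in annotated transcripts of 28 of the 37 replication-dependent genes, in 1 of the 8 variants and in 158 of 55405 other annotated genes (0.285%). The form printed for H1f2 was shared by 14 members of the H1, H2A, H2B and H3 families, and that of H2bc3 by 5 H2B and H3 members. Of the H4 genes with the pattern, all but H4c11 shared the stem printed for H4c8, with loops that differed between members, and H2ax carried that stem too. H2ax, which can give both a stem-loop and a polyadenylated mRNA, was the variant with the pattern. In the other 9 replication-dependent genes (H1f1, H1f5, H2ac12, H2ac15, H2bc15, H2bc21, H2bc4, H3c11 and H4c12) the annotated transcript did not hold these letters, which says nothing of the mRNA itself. H4c12, for example, is annotated with 312 bases only. The annotated transcript ran 840 bases past the stem-loop in H1f2, 822 in H2ax and 330 in H4c9, and 42 in H2ac7 and 23 in H2bc3. Since TPM divides by the annotated length, the level of a gene whose annotation is too long or too short is scaled down or up in all 6 libraries alike.

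Many replication-dependent histone transcripts were more abundant in the Knockout libraries, with called genes in the H1, H2B, H3 and H4 families, although H1f2, the most abundant of the class, was not called. Of the 37 genes, 29 reached a mean of 1 TPM and were tested. limma called 14 of them higher (48.3% of the tested members, where 18.5% of all 13034 tested rows were called higher) and 0 lower (10.1% of all tested rows). No replication-dependent gene was lower at an unadjusted p under 0.05 either (0 of 29), and limma-voom on the recovered reads called 13 higher and 0 lower, where it called 16.2% of all its rows higher and 14.8% lower. The median log2 fold change of the tested members was 0.69, and that of all tested rows was 0.04. A call means a Benjamini-Hochberg adjusted p under 0.05 over all tested rows, and fold changes are Knockout over Control in log2(TPM + 1), where the added 1 makes changes of low genes look smaller.

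The filter at 1 TPM removed 8 genes (H2ac12, H2ac15, H2ac6, H2bc12, H3c2, H3c7, H4c4 and H4c6), which held 0 to 72 reads in a library, and 1 of the 29 tested genes reached the filter in Knockout alone. With no filter and all 37 genes tested, the same 14 were called higher and 0 lower, where 12.6% of all 17217 rows were called higher and 6.73% lower, and the median was 0.35. Over all 37 genes the mean of the Knockout libraries was above that of the Control libraries in 33, a relation found in 54.9% of all rows. In 15 of the 37 all Knockout values exceeded all Control values, as in 25% of all rows, and in 0 of the 37 all were below, as in 17.1% of all rows. The bulk libraries cannot tell more RNA per cell from more cells of the kind that makes it.

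**Figure D1:**
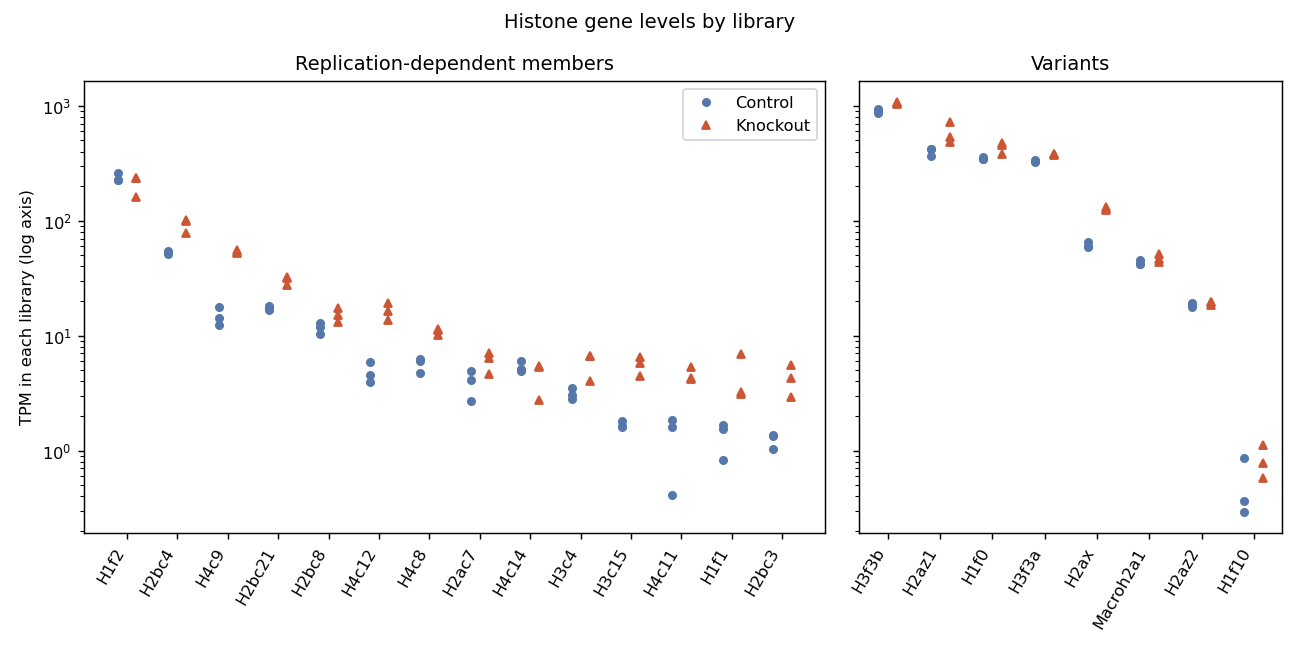
Level in TPM (log axis) of the 14 replication-dependent genes given in full and of the 8 variants, with a point for each of the 3 Control (circles) and 3 Knockout (triangles) libraries. The Knockout points of H4c9 lie at 52.6 to 55.3 TPM and its Control points at 12.4 to 17.8 TPM, whereas those of H1f2 overlap.

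The H4 family, whose products pair with H3 in the core of the nucleosome, had the largest fold difference in summed level of the 5 families. The 9 H4 genes together were 34.9, 34.3 and 40.7 TPM in Control and 98.9, 97.9 and 96.1 TPM in Knockout. The means, with the SD of 3 libraries each, were 36.7 ± 3.55 and 97.6 ± 1.41 TPM, which differ 2.66-fold, and the groups did not overlap. H4c9 alone had means of 14.8 TPM in Control and 53.9 TPM in Knockout and carried most of this difference. The rank of the family thus rests largely on that gene. Among 7 tested H4 genes there were 5 rises, 0 falls and 2 without a call, and the median log2 fold change was 0.94. Of all tested rows, 18.5% were called higher and 10.1% lower.

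H4c9 was the most abundant H4 gene and had the largest log2(TPM + 1) fold change of the class. In the order of the replicate numbers, Control libraries held 12.4, 14.2 and 17.8 TPM of it, and Knockout libraries 55.3, 52.6 and 53.8 TPM. The lowest Knockout library was well above the highest Control library, and the Knockout libraries lay closer together than the Control libraries. On the log2 scale this was a rise of 1.81 (SE 0.12, limma adjusted p = 0.000441). H4c12 was 3.96, 4.59 and 5.94 TPM in Control and 13.6, 16.5 and 19.1 TPM in Knockout, again without overlap (1.58, SE 0.16, adjusted p = 0.00242). H4c8 rose less, from 6.01, 4.77 and 6.25 TPM to 11.3, 11.4 and 10.1 TPM (0.84, SE 0.11, adjusted p = 0.00409).

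H4c11 and H4c1 rose from low levels. H4c11 was 1.83, 1.61 and 0.413 TPM in Control and 5.34, 4.2 and 4.3 TPM in Knockout, on 5 to 74 reads (1.36, SE 0.27, adjusted p = 0.012). For this low gene the scale matters: its fold change was 2.06 under limma-voom and 1.98 with a pseudocount of 0.1, above those of H4c9 (1.82 and 1.87). H4c1 rose from 1.39 ± 0.206 to 3.57 ± 0.137 TPM (SD, n = 3 each; 0.94, SE 0.13, adjusted p = 0.00445), on 9 to 33 reads. H4c14 did not share this pattern, although its stem-loop printed above has the same letters as that of H4c9. It stood at 6.07, 4.93 and 5.14 TPM in Control and at 5.44, 5.32 and 2.77 TPM in Knockout, so the groups overlapped and Knockout replicate 3 alone was low (-0.25, SE 0.22, adjusted p = 0.42). H4c3 was not called either (0.21, adjusted p = 0.352), and H4c4 and H4c6 were too low to test.

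Around the H4 start sites the motif searches found a set of words that few promoters hold. RefSeq promoters of build GRCm38.p6 were matched for 32 of the 37 replication-dependent genes and 7 of the 8 variants. Each ran from 250 bases before to 50 after the start, and a match anywhere in it was counted, also after the start. The word GGTCCG, searched on both strands, was in 7 of 8 H4 promoters (87.5%) and in 8.25% of all 32851 promoters. It was not confined to H4, as the promoters of H2bc9 and H3c11 and 3 of 7 variant promoters (42.9%) held it. An E2F-type word (TTTCCCGC, TTTGGCGC or TTCCCGCC, of which the first and the last can overlap) was in 5 of 8 H4 promoters (62.5%), namely those of H4c1, H4c11, H4c12, H4c4 and H4c6, and in 3.21% of all promoters. H4c9, the most abundant H4 gene, is shown as the H4 example, over the 250 bases before its start at chr13:22041363-22041612 on the minus strand. TATAAA and GGTCCG are in capitals. The sequence holds no CCAAT and none of the E2F-type words, and these matches are descriptions of letters, not of binding.
H4c9: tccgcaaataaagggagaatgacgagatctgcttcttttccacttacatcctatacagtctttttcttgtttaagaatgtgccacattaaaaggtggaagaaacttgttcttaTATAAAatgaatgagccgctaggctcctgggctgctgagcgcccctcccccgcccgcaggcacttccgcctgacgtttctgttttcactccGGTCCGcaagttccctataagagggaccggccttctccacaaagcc

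The H3 genes, which encode the replication-coupled H3.1 and H3.2 proteins, were low throughout and were higher in Knockout. Their 9 levels summed to 13.9, 13.7 and 11.7 TPM in Control and to 24.7, 27.1 and 23.8 TPM in Knockout, a 1.93-fold difference without overlap. Of 7 tested genes 3 were called higher and 0 lower, 4 were not called and the median was 0.69. Of all tested rows, 18.5% were called higher and 10.1% lower. H3c15 was 1.82, 1.59 and 1.63 TPM in Control and 5.75, 6.56 and 4.49 TPM in Knockout, without overlap (1.29, SE 0.15, adjusted p = 0.00289). H3c4 was 2.83, 3.54 and 3.07 TPM against 6.7, 6.68 and 4 TPM (0.69, SE 0.19, adjusted p = 0.033), and its call was lost when any library but Knockout replicate 3 was left out. H3c11, on 4 to 27 reads, rose by 0.82 on the log2 scale (adjusted p = 0.0343) and lost its call under limma-voom and without Control replicate 1 or 2 or Knockout replicate 2 or 3. H3c8 moved as far with wider scatter, at 0.999, 3.06 and 1.81 TPM in Control and 4.11, 3.01 and 6.84 TPM in Knockout. Its groups overlapped and it was not called (0.94, SE 0.32, adjusted p = 0.0658), although it passed the threshold without Control replicate 2. H3c1, H3c3 and H3c6 had log2 fold changes of 0.04, 0.16 and 0.23 and were not called, and H3c2 and H3c7 were too low to test.

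The H2B genes were led by H2bc4. The 9 genes summed to 88.2, 89.8 and 88.1 TPM in Control and to 156, 163 and 131 TPM in Knockout (1.69-fold). Of 8 tested genes 3 were called higher, 0 lower and 5 not called (median 0.35), where 18.5% of all tested rows were called higher and 10.1% lower. H2bc4 was 52.2, 55 and 50.9 TPM in Control and 100.5, 100.2 and 77.7 TPM in Knockout, so the groups did not overlap and Knockout replicate 3 was the lowest of its group (0.80, SE 0.10, adjusted p = 0.00384). H2bc21, which lies outside the main histone cluster, was 16.7, 17.5 and 18.2 TPM against 27.8, 31.6 and 32.1 TPM (0.77, SE 0.07, adjusted p = 0.00189). H2bc3 was 1.04, 1.35 and 1.38 TPM against 5.6, 4.26 and 2.93 TPM (1.19, SE 0.20, adjusted p = 0.00793), on 6 to 51 reads.

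H2bc8 stood close to the threshold. It was 12.9, 10.3 and 11.8 TPM in Control and 15.2, 17.4 and 13.1 TPM in Knockout, without overlap, although Control replicate 1 and Knockout replicate 3 nearly met (0.36, SE 0.12, adjusted p = 0.0607). It was called without Knockout replicate 3 and with the filter at a mean of 5 TPM. H2bc6, H2bc7, H2bc9 and H2bc15 had log2 fold changes of 0.35, 0.10, 0.24 and 0.34 and were not called. The H2bc8 promoter shows the other promoter type of the class, with CCAAT on either strand, the octamer ATTTGCAT and TATAAA in capitals, over the 250 bases before its start at chr13:23571150-23571399 on the plus strand.
H2bc8: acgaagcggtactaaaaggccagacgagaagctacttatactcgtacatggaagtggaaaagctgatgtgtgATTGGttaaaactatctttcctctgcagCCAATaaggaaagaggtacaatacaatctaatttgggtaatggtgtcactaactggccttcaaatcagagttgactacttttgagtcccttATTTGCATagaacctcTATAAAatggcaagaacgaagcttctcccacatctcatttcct

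CCAAT, searched on both strands, was in 27 of the 32 replication-dependent promoters (84.4%), among them all 7 H2B, all 5 H2A, all 7 H3 and all 5 H1 promoters matched, and in 37.4% of all promoters. TATAAA was in 23 of 32 (71.9%) and in 13.6% of all promoters. The octamer was in 3 of 7 H2B and 3 of 5 H2A promoters and in none of the other 20 of the class, and in 1.74% of all promoters. The H1 box AAACACA was in 4 of 5 H1 promoters, in none of the other 27 of the class and in 7.18% of all promoters. Of the 7 variant promoters matched, 4 held CCAAT, 1 TATAAA (H3f3b), 1 the octamer (H3f3b), 1 the H1 box (H3f3a) and 0 an E2F-type word.

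The H2A genes that follow the symbol rule were scarce. The 5 genes summed to 8.06, 5.77 and 5.47 TPM in Control and to 10.7, 9.53 and 9.41 TPM in Knockout (1.54-fold), and 2 were tested, with 0 called by limma and 0 by limma-voom, and 1 higher and 0 lower at an unadjusted p under 0.05. H2ac7, the most abundant of them, was 4.94, 4.14 and 2.68 TPM in Control and 6.34, 4.68 and 7.07 TPM in Knockout, with overlapping groups (0.53, SE 0.21, adjusted p = 0.0976). H2ac8 was not called (0.35, adjusted p = 0.337). Each of the 5 H2A genes overlaps an annotated gene on the opposite strand, and whether the counting used strand is not given in the sources used here.

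Linker histone genes were called in part. H1f2, which encodes linker histone H1.2, was the most abundant replication-dependent gene and stood at 258, 228 and 226 TPM in Control and at 235, 237 and 162 TPM in Knockout. Knockout replicates 1 and 2 lay within the Control range and replicate 3 below it, and the gene was not called (-0.19, SE 0.15, adjusted p = 0.366). H1f4 was not called either (-0.16, SE 0.18, adjusted p = 0.542), and its exons overlap those of H2bc6 on the same strand, so that reads there may belong to either gene. The other 3, H1f1, H1f3 and H1f5, at levels like that of H1f4, were called higher, where 18.5% of all tested rows were.

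H1f1 was 0.834, 1.68 and 1.55 TPM in Control and 3.24, 6.97 and 3.13 TPM in Knockout (1.16, SE 0.29, adjusted p = 0.0238), without overlap and with Knockout replicate 2 far above the others. H1f5 rose from 1.63 ± 0.405 to 3.68 ± 0.967 TPM (0.83, SE 0.19, adjusted p = 0.0204) and H1f3 from 1.17 ± 0.402 to 2.83 ± 0.662 TPM (0.82, SE 0.20, adjusted p = 0.0223; SD, n = 3 each). These calls depended on single libraries: all 3 were lost without Control replicate 1 or Control replicate 3, H1f3 and H1f5 also without Knockout replicate 2, and H1f3 also without Knockout replicate 1. The summed H1 level was 245 ± 17.6 TPM in Control and 225 ± 45.7 TPM in Knockout (SD, n = 3 each), with overlapping groups.

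**Figure D2:**
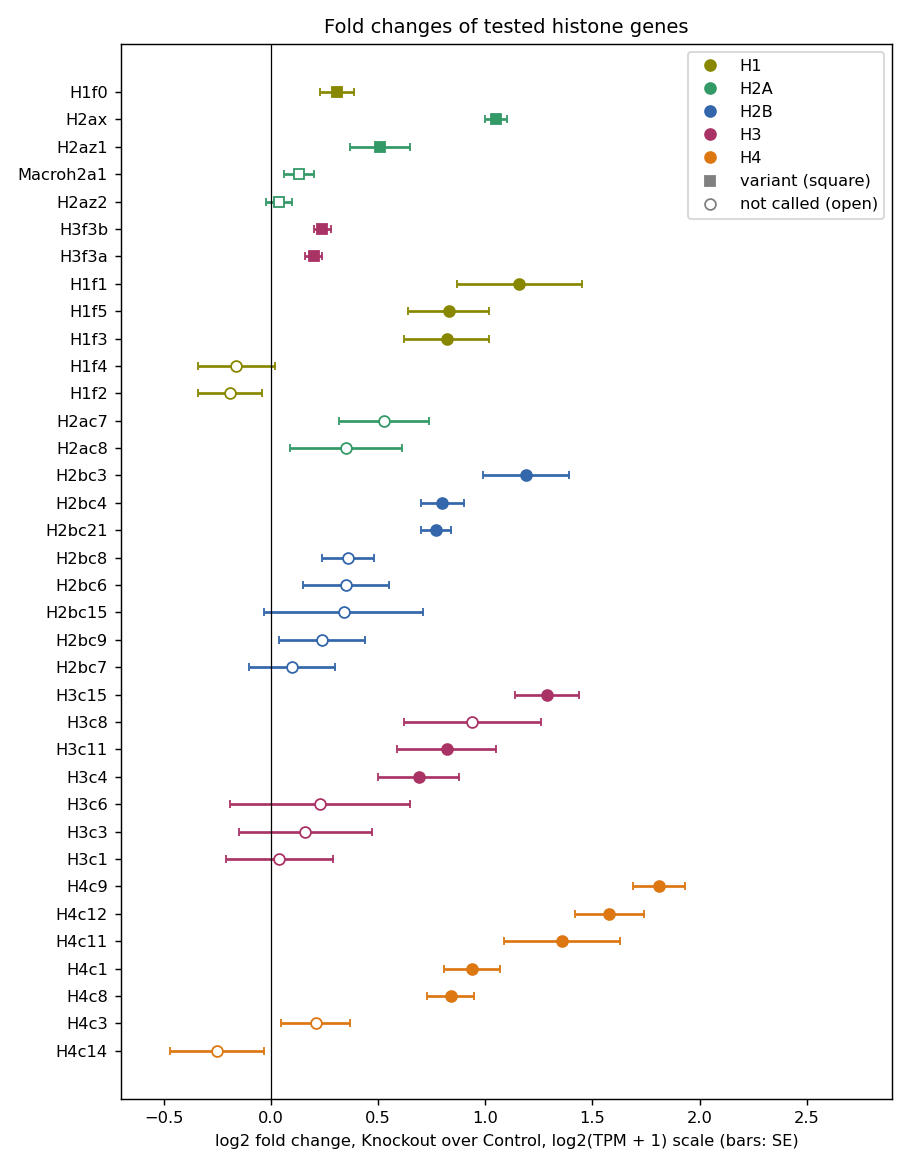
Log2 fold change (Knockout over Control, log2(TPM + 1) scale; bars are the SE of the limma fit) of the tested histone genes, with called genes filled. H4c9 is at 1.81 and H2ax at 1.05, and the lowest point is H4c14 at -0.25.

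Of the variant genes, 5 were higher in Knockout, and those other than H2ax by smaller amounts than any called replication-dependent gene. Of 8 variants 7 were tested, 5 rose, 0 fell and 2 were not called, where 18.5% of all tested rows were called higher and 10.1% lower. The median log2 fold change was 0.24, and limma-voom also called 5 higher and 0 lower. No variant was lower at an unadjusted p under 0.05 (0 of 7). The Knockout mean was above the Control mean in all 8 (54.9% of all rows), and in 5 all Knockout values exceeded all Control values (25% of all rows). Their levels were far above those of most replication-dependent genes, with a median over genes of 225 TPM against 2.48 TPM. Whether the libraries were made by poly(A) selection is not given in the sources used here, and its part in this gap was not tested.

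H2ax, whose product is phosphorylated around DNA breaks, was 59.6, 65.2 and 60.3 TPM in Control and 126, 125 and 133 TPM in Knockout. Every Knockout library was far above every Control library, a 2.08-fold difference in means (log2 fold change 1.05, SE 0.05, limma adjusted p = 0.000237). H2ax is thus the variant with the stem-loop and the variant with the largest fold change. Its means were 61.7 ± 3.06 and 128 ± 4.53 TPM (SD, n = 3 each).

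The H3.3 genes rose by small amounts with little scatter. H3f3b was 929, 898 and 872 TPM in Control and 1059.4, 1088.2 and 1040.7 TPM in Knockout (0.24, SE 0.04, adjusted p = 0.0101). H3f3a, which encodes the same protein, was 324, 334 and 335 TPM against 379, 383 and 376 TPM (0.20, SE 0.04, adjusted p = 0.0131), and lost its call without Knockout replicate 2. Neither gene's groups overlapped.

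Of the H2A.Z genes, H2az1 rose and H2az2 did not pass the test. H2az1 was 363, 423 and 420.2 TPM in Control and 485, 533 and 719.6 TPM in Knockout, without overlap and with Knockout replicate 3 well above the other libraries (0.51, SE 0.14, adjusted p = 0.036). Its call was lost after median-of-ratios scaling, with no filter, and without Control replicate 1, 2 or 3 or Knockout replicate 2. H2az2 was 19.4, 17.8 and 18.9 TPM against 19.6, 18.5 and 19.7 TPM, in overlapping groups (0.04, SE 0.06, adjusted p = 0.665), and its sign turned under median-of-ratios and upper-quartile scaling.

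H1f0, the linker histone of slowly dividing and differentiated cells, was 361, 344 and 345 TPM in Control and 452, 471 and 382 TPM in Knockout, without overlap (0.31, SE 0.08, adjusted p = 0.029). Upper-quartile scaling ended its call, as did leaving out any library but Knockout replicate 3. Macroh2a1, which encodes the macrodomain-bearing macroH2A.1, was 45.9, 41.7 and 42.1 TPM against 44, 46.7 and 51.3 TPM, with overlap (0.13, SE 0.07, adjusted p = 0.212). H1f10 was 0.29, 0.87 and 0.368 TPM against 0.78, 0.576 and 1.12 TPM and was too low to test.

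Set side by side as sums per library, the classes moved by similar factors, and the factor of the replication-dependent class depended on a single gene. The replication-dependent sum was 410.0, 379.8 and 379 TPM in Control and 538, 553 and 433 TPM in Knockout, or 389 ± 17.8 and 508 ± 65.3 TPM (mean and SD, n = 3 each). This is 1.3-fold, without overlap. H1f2 held most of that sum. Without it, the other 36 genes summed to 152, 152 and 152 TPM in Control and 303, 316 and 270.5 TPM in Knockout, a 1.95-fold difference. The variant sum was 2102.8, 2124.5 and 2094.3 TPM in Control and 2565.9, 2666.1 and 2723.4 TPM in Knockout, a 1.26-fold difference without overlap. The sums are descriptions, and the difference between the classes was not tested.

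The make-up of the replication-dependent sum differed between the groups accordingly. H1 took 62.8% of it in Control and 44.3% in Knockout, H2B 22.8% and 29.6%, H4 9.41% and 19.2%, H3 3.36% and 4.96%, and H2A 1.65% and 1.95%. H2A, H2B, H3 and H4 are used in equal numbers in the nucleosome core, and these shares were far from equal in both groups. The shares cover only rows under a symbol of the pattern and depend on annotated lengths. Hist1h2al, outside the H2A share, had means of 22.3 TPM in Control and 36.6 TPM in Knockout. The shares thus do not measure the balance of core histone transcripts.

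**Figure D3:**
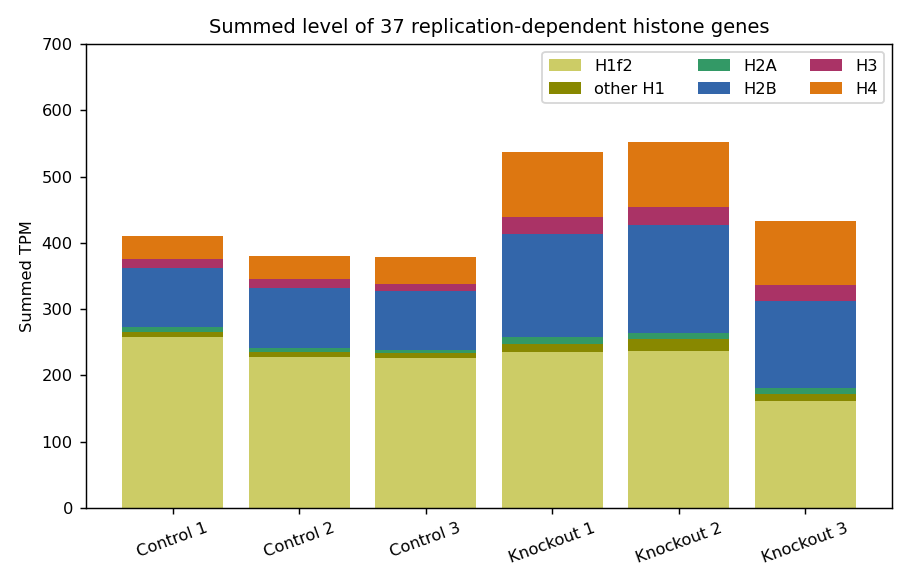
Summed TPM of the 37 replication-dependent genes in each library, as bars stacked by family with H1f2 apart from the other H1 genes. The H4 segment is 34.3 to 40.7 TPM in Control and 96.1 to 98.9 TPM in Knockout, and the H1f2 segments of the groups overlap.

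Across the range of levels, called members were found both among abundant and among scarce genes. Of the 10 replication-dependent genes of highest mean, 6 were called higher (H2bc4, H4c9, H2bc21, H4c12, H4c8 and H3c4), where 18.5% of all tested rows were. With the filter at a mean of 5 TPM, where H3c4 is not tested, 6 genes of the class were called, now with H2bc8. Of the class, all genes tested there but H1f2 were called. In the fit as a whole, 9 of the 14 calls lay below a mean of 5 TPM. Reads behind these values went from 4 to 27 in H3c11 up to 75 to 418 in H1f3, whose annotated transcript is long. For 9 of the 14 called replication-dependent genes (H2bc21, H2bc3, H2bc4, H3c15, H4c1, H4c11, H4c12, H4c8 and H4c9) and 2 of the 5 called variants (H2ax and H3f3b) the call held in each of the 14 alternative settings that tested them.

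**Figure D4:**
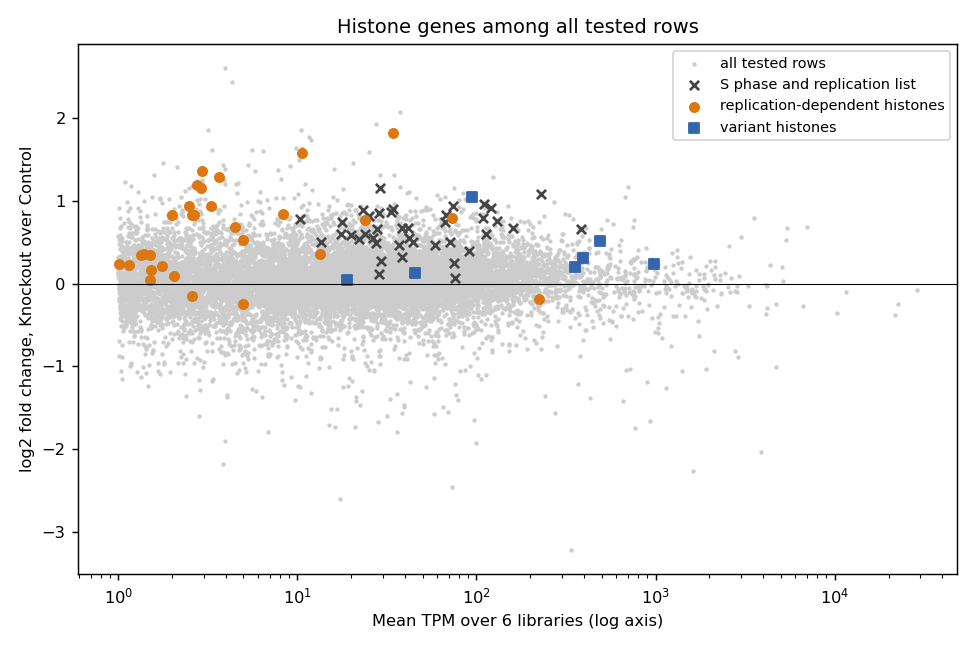
Log2 fold change (Knockout over Control) against mean TPM (log axis) for all tested rows (grey), with the tested replication-dependent genes as circles, the variants as squares and the S-phase list as crosses. The replication-dependent genes lie mostly at low levels, with H1f2 (-0.19) at the far right of its class, and all 7 tested variants lie above 0.

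By position, 34 of the replication-dependent genes lie on chromosome 13 and 3 on chromosome 3 in GENCODE M21, and called genes were found on both chromosomes. Over all tested rows 18.5% were called higher. On chromosome 3, H2bc21 and H3c15 rose and H4c14 was not called. On chromosome 13, a group of neighbours made of H4c11, H4c12, H2ac15, H2bc15, H1f5 and H3c11 held 4 called genes among 5 tested, and the largest group, of 25 genes, held 7 called among 20 tested. H4c9 was the 1 tested gene of another group, with H2ac12 and H2bc12 beside it.

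Many H2A and H2B genes are transcribed away from each other from a shared promoter region, and 5 such pairs, with starts within 1000 bp, were present. In the pair H2ac6 and H2bc4, H2bc4 went from a mean of 52.7 to 92.8 TPM and was called, while H2ac6 went from 0.561 to 1.21 TPM and was too low to test. In the pair H2ac8 and H2bc8 the means went from 1.12 to 1.66 TPM and from 11.6 to 15.2 TPM, and in the pair H2ac7 and H2bc7 from 3.92 to 6.03 TPM and from 1.93 to 2.16 TPM, with no gene called. H2ac15 with H2bc15 and H2ac12 with H2bc12 held no called gene. Partners of a pair thus stood at levels far apart in H2ac6 and H2bc4 and in H2ac8 and H2bc8.

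Because histone genes of a family are near copies, reads of one may have been counted in another. The share of a gene's 50-base words that also occur in annotated transcripts of another gene ranged from 0% in H1f1, H1f5 and H2bc21 to 92.1% in H2ac12. It was 28.9% for H4c9, 30.6% for H2bc4, 71.5% for H4c12, 63.5% for H3c15 and 87.6% for H3c11, and 9.7% for H2ax, 35.4% for H2az1 and 27.1% for H3f3a. Of 6 replication-dependent genes that share under 10% of their words, all were tested, 4 rose (H1f1, H1f3, H1f5 and H2bc21), 0 fell and the median log2 fold change was 0.80. Of the 31 genes that share at least 10%, 23 were tested, 10 rose, 0 fell and the median was 0.53. Over all tested rows 18.5% were called higher and 10.1% lower, with a median of 0.04. How the authors treated reads that map to several genes is not given in the sources used here, so the level and fold change of single members of a family such as H4 are less certain than the sum over the family.

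**Figure D5:**
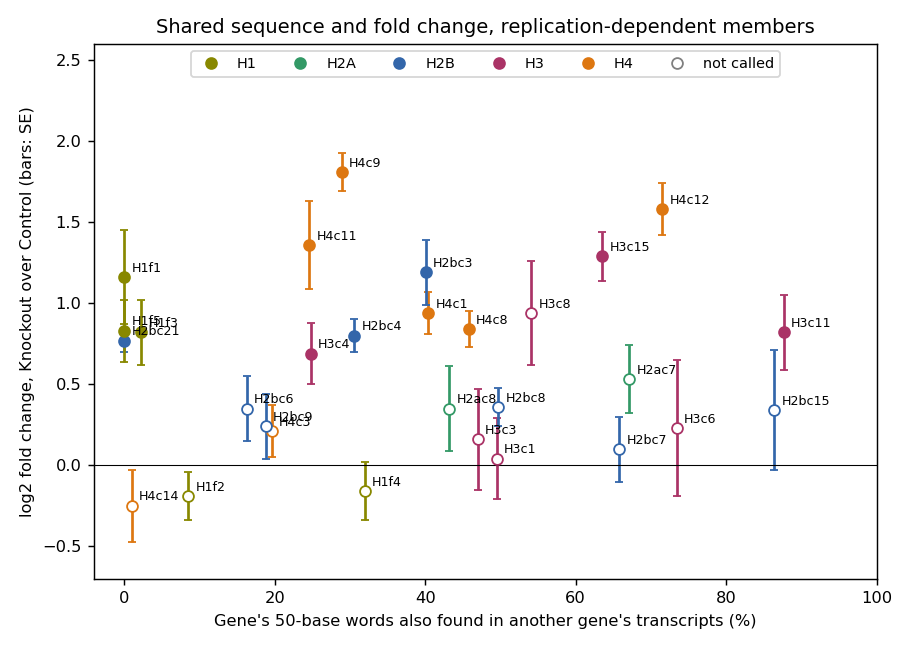
Log2 fold change (Knockout over Control; bars are the SE) of the tested replication-dependent genes against the share of their 50-base words that also occur in another gene's transcripts. H2bc21, H1f1 and H1f5 are at 0% and were called, and H4c12 and H3c11 were called at 71.5% and 87.6%.

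Stem-loop annotation was set beside the calls in the same way. Among the 28 genes with a stem-loop in the transcript, 13 had at most 200 annotated bases after it, and of these 10 were tested, 3 rose and the median was 0.44. Of the 15 with more than 200 bases after it, 12 were tested, 5 rose and the median was 0.29. Of the 9 without the stem-loop in the annotated transcript 7 were tested, 6 rose (H1f1, H1f5, H2bc21, H2bc4, H3c11 and H4c12) and the median was 0.82. Genes of every annotation kind were thus among those called, where 18.5% of all tested rows were called higher. The groups are small, and whether they differ was not tested. Whether the libraries were made by poly(A) selection or by removal of ribosomal RNA is not given in the sources used here, and an mRNA that ends at the stem-loop is recovered differently by each.

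Rows with a histone name outside the rule and the lists, chosen after their values were seen, numbered 10, of which 6 were tested and 1 was called. The 5 not called were H3f3c, Hist1h4m, Hist1h2al and the pseudogene rows H3f3a-ps1 and H3f3a-ps2, at log2 fold changes of 0.29 to 0.71. Hist1h2al, an H2A gene by its name, was 22.3 ± 8.4 TPM in Control and 36.6 ± 9.51 TPM in Knockout (SD, n = 3 each), above the sum of the 5 H2A members. The 1 called, Hist1h4n, listed by RefSeq as an older symbol of H4c18, was 3.29, 6.81 and 4.46 TPM in Control and 20, 16.2 and 10.4 TPM in Knockout, without overlap (1.5, SE 0.28, adjusted p = 0.01). It shares 50-base words with H4c9 in GENCODE M21. Of 20 other listed histone genes, 6 had a row and 3 were tested, and Cenpa, the centromeric H3, was the 1 called (H2aj and H2aw were not, at 0.19 and 0.43). Cenpa was 20.5, 23.2 and 20.8 TPM in Control and 34.7, 35.2 and 41.6 TPM in Knockout (0.76, SE 0.08, adjusted p = 0.00282).

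Genes that make and process histone mRNA rose in part. Of 22 listed genes 21 were tested, of which 9 rose, 0 fell and 12 were not called. At an unadjusted p under 0.05 and by limma-voom 0 fell too, and the median log2 fold change was 0.19. Over all tested rows 18.5% were called higher and 10.1% lower. Of the 9 calls, those of Lsm1, Cpsf2, Npat, Snrpd3 and Casp8ap2 were lost in some alternative setting. Slbp, the stem-loop binding protein gene, was 19.5, 23.5 and 23.1 TPM in Control and 29, 30.2 and 33.8 TPM in Knockout, without overlap (0.48, SE 0.09, adjusted p = 0.0103). Snrpb, a shared core protein of small nuclear RNPs, rose by 0.48 (SE 0.09, adjusted p = 0.0107) and Cdk2, the S-phase kinase that acts on the histone gene activator NPAT, by 0.44 (SE 0.07, adjusted p = 0.00602). Casp8ap2, the histone locus body protein FLASH, rose by 0.41 (SE 0.09, adjusted p = 0.0164), a call lost without Knockout replicate 2. The U7-specific genes Lsm10 and Lsm11 were not called (-0.10 and -0.12), and neither was Hinfp, the H4 promoter factor gene (0.06).

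Histone chaperones, which carry new histones to DNA, rose in 15 of 25 tested genes, with 0 lower (0 also at an unadjusted p under 0.05 and by limma-voom) and a median of 0.37. Asf1b, an H3-H4 chaperone, went from 48.1 ± 6.24 to 81 ± 14.1 TPM (0.73, SE 0.14, adjusted p = 0.0106), Chaf1a, of the replication-coupled assembly factor CAF-1, from 14.8 ± 2 to 24.5 ± 4.17 TPM (0.69, adjusted p = 0.012), and Nasp, an H3-H4 storage chaperone, from 50.3 ± 5.92 to 80.7 ± 6.7 TPM (SD, n = 3 each; 0.67, adjusted p = 0.00513). Tonsl, which reads new H4 behind the fork, rose by 0.57 (adjusted p = 0.0234), a call lost without Control replicate 1 or 3. The chaperone calls of Nap1l4, Rbbp4, Nap1l1 and Ncl were also lost in some alternative settings. Of 12 tested genes of H2A.Z exchange 3 rose and 1 was called lower, shares near those of all tested rows (18.5% higher, 10.1% lower), with a median of 0.12. Anp32e, which removes H2A.Z from chromatin, rose by 0.53 (adjusted p = 0.0103), and Znhit1 and Ruvbl2 by 0.24 and 0.29, calls that ended with upper-quartile scaling and when Control replicate 3 or Knockout replicate 2 was left out, among other settings. Ruvbl1, the gene called lower (-0.64), has values that are not whole reads.

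The genes of DNA replication were higher in the same libraries as the histone genes. Of 40 listed S-phase genes, all tested, 38 rose and 0 fell (0 also at an unadjusted p under 0.05 and by limma-voom). Their median was 0.66. Over all tested rows 18.5% were called higher and 10.1% lower, with a median of 0.04. Ccne2, a cyclin of S-phase entry, rose by 1.15 (SE 0.19, adjusted p = 0.00754), Rrm2, which makes deoxynucleotides, by 1.08, and Uhrf1 and Mcm7 by 0.96 and 0.94. Of 20 mitosis genes 19 rose, with a median of 0.84. Ccna2 rose by 1.04, Plk1 by 1.02 and Kif11 by 0.96. Cdk1, the 1 called lower (-0.97), has values that are not whole reads.

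Knockout replicate 3 was placed differently for the replication-dependent genes and for these lists. It held the lowest Knockout value for 22 of the 37 replication-dependent genes (59.5%), among them all 5 H1 genes, and the highest for 5 (13.5%). Over all rows, tested or not, it was lowest for 42.4% and highest for 36.7%. For the S-phase list it was highest for 37 of 40 genes and for mitosis for 19 of 20, and for the variants for 5 of 8. Without Knockout replicate 3, 14 replication-dependent genes and 5 variants were called higher and the log2 ratio of the replication-dependent sums was 0.49 in place of 0.38. Without Control replicate 1 the number of replication-dependent genes called higher was 9, and without Knockout replicate 2 that of variants was 2. The part of the replication and mitosis genes in the histone results was not tested.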

How the data were processed

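RNA was sequenced on an Illumina instrument in 6 libraries, per the labels. The authors deposited 1 table of 17217 rows in TPM, a unit inferred from column sums of 991720.6 to 998571.9. The names GRCm39 and DESeq2 come with no stated role, per the submitters' processing notes. Aligner, counting method, annotation and library preparation are not given in the sources used here. All sample columns were mapped (0 left over).

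Reads behind TPM were recovered with union exon lengths of the GENCODE M21 annotation (of mouse build GRCm38). Of all rows, 96.8% were whole reads at the annotated length within 0.02 read, and 28 at no length tried, none of them a member. limma 3.58.1 in R 4.3.3 was fitted on log2(TPM + 1) for the 13034 rows whose mean reached 1 TPM (eBayes with trend and robust settings, two-sided, Benjamini-Hochberg over all tested rows, threshold 0.05). The design named a count test had the values been counts. Alternatives were another pseudocount (0.1) and filters, other scalings, a replicate block, each library left out, and limma-voom on recovered reads with TMM factors recomputed from their published formula. The fit was tested on simulated data first.

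Named in full are the variants, the 10 replication-dependent genes of highest mean and the 6 called ones of largest fold change, and 4 called genes of each other list. Some others are named beside them, chosen after their values were seen, as were the limits of 10% shared words and 200 bases and the promoters printed. Members and lists were chosen with earlier results of these data known. Promoters are from RefSeq (GRCm38.p6), and its coordinates are not those of GRCm39. Replicate numbers did not pair the libraries: correlations of same-numbered deviations were 0.134, -0.077 and 0.031.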

Additional observations from a re-analysis of the deposited data

How the results depend on the processing

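Against 14 replication-dependent genes called higher, 6 were called when rows had to reach a mean of 5 TPM (5 of the 14, and H2bc8). Fewer genes are tested there, and of the class all tested genes but H1f2 were called. Over all rows tested in that setting 2438 were called higher. The class median was 0.35 with no filter, where 8 more genes enter. The variant median was 0.20 under limma-voom, 0.20 after median-of-ratios scaling, 0.19 after upper-quartile scaling and 0.26 with no filter. The log2 ratio of the summed replication-dependent level was 0.97 without H1f2, and that of the variant sum was 0.29 and 0.28 after median-of-ratios and upper-quartile scaling. Over all tested rows 2406 were called higher and 1313 lower, against 1814 and 1756 after median-of-ratios scaling. The median of all rows was 0.04 as deposited, and the scalings moved it by 0.05 at most. With a library left out in turn, all rows called higher were 1313 to 2096 and lower 669 to 1219, replication-dependent genes called higher 9 to 14, variants 2 to 5, and the variant median 0.22 to 0.26. With the replicate block, 2331 rows were called higher and 1380 lower, and 0 calls of members were lost. The sign turned for these members, none of them called: H4c14 (-0.38 to 0.00), H3c1 (-0.16 to 0.26), H2bc7 (-0.04 to 0.28), H3c3 (-0.13 to 0.35), H3c6 (-0.03 to 0.65) and H2bc15 (-0.04 to 0.58) with a library left out, and H2az2 at -0.00 and -0.01 under the scalings. Beyond the fewer genes or samples of the filters and left-out libraries, the cause was not tested. Depth limits the scarce members, of which H4c11 rests on 5 to 74 reads and H3c11 on 4 to 27.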
